A study of Mus musculus with 12 samples.

Results

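Cytochrome P450 genes encode haem enzymes that oxidise lipids, steroids, retinoids and foreign chemicals. They were taken here as every gene whose symbol in the deposited files starts with Cyp and a digit, without Cyp51, Cyp4a10, Cyp4a14, Cyp24a1 and Cyp27b1. This gave 35 of the 11614 measured genes, out of 40 Cyp symbols. The samples are 12 RNA sequencing libraries of kidney cortex from the mouse strain C57BL/6J, with 3 libraries for each of 4 groups. The mice modelled non-alcoholic steatohepatitis (NASH), a fatty and inflamed liver disease: NASH mice received a Western diet and carbon tetrachloride (CCl4), a liver toxin, for 12 or 24 weeks. Control mice received a normal diet and corn oil for 12 or 24 weeks. Diet, CCl4 and liver disease therefore differ together between NASH and control. By the labels, the 12-week groups had 6 mice each, the 24-week groups 8 control and 10 NASH mice, with equal numbers of males and females. They give neither the age of the mice, nor the sex, animal or pool behind a library, nor the hour of dissection, so the p-values measure the spread between these samples, which may be technical.

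P450 enzymes sit in the endoplasmic reticulum or the inner mitochondrial membrane and need electrons from a partner protein, for most of them the reductase encoded by Por. In the kidney they are best known for turning arachidonic acid into signalling lipids. CYP4A enzymes add a hydroxyl group at the far end of the chain to make 20-HETE, which constricts renal vessels, and CYP2C and CYP2J enzymes make epoxyeicosatrienoic acids, which dilate vessels and act on tubular sodium transport. CYP2E1 also activates CCl4 to its toxic radical. Many P450 genes of mouse liver and kidney are known to differ in level between the sexes.

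By known role, the files hold 12 of 21 listed fatty acid omega-hydroxylases (the CYP4 family and its relatives), 7 of 26 arachidonic acid epoxygenases, 11 of 37 drug and toxin enzymes, 3 of 6 sterol and bile acid enzymes, 2 of 6 enzymes of retinoic acid clearance or without an assigned role, and 0 of 7 enzymes of steroid hormone synthesis. The lowest maximum of any deposited gene is a log2 value of 6.64, which points to a filter on low genes, and a gene that is not listed may still be expressed. Of the 35 genes, 25 lie in 5 clusters: 5 Cyp2j genes within 620 kb and 6 Cyp4a and Cyp4b genes within 349 kb on chromosome 4, 5 Cyp2 genes within 1331 kb on chromosome 7, 4 Cyp2d genes within 424 kb on chromosome 15 and 5 Cyp4f genes within 441 kb on chromosome 17 (build mm10).

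Neighbours in these clusters can be near-copies of each other, which bears on how far their reads can be told apart. Cyp2a4, a testosterone hydroxylase, and Cyp2a5, which oxidises coumarin and nicotine, are shown first because their start regions are nearly the same while their average NASH changes had opposite signs. As deposited, Cyp2a4 did not pass over all 12 libraries, and the difference between the 2 genes was not tested. Windows of 250 bases before to 50 bases after the annotated start were taken from RefSeq on GRCm38.p6, the build also called mm10. The Cyp2a4 window lies at chr7:26306942-26307241 and the Cyp2a5 window at chr7:26835089-26835388, both on the plus strand. They match in 294 of 301 aligned positions (97.7%) and differ by 5 substitutions. Capitals mark these and, near the end of Cyp2a5, 1 base without a partner; the first base of Cyp2a4 also has none and is not marked.
Cyp2a4: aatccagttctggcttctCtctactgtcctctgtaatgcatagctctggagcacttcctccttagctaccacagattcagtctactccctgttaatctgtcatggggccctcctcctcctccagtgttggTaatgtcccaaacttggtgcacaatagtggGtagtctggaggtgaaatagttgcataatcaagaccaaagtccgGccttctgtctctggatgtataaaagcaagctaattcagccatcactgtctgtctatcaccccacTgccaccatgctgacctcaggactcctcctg
Cyp2a5: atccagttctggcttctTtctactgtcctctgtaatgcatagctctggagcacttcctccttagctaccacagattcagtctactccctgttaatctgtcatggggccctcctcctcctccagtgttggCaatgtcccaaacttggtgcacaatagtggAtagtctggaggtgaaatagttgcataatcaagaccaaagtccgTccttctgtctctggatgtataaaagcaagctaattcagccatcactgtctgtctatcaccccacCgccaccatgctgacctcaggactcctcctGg

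The transcripts of this pair have 84.8% identity, and 36.1% of the 50-base stretches of Cyp2a4 and 31.0% of those of Cyp2a5 also occur in the other gene. In Cyp4a12a and Cyp4a12b the shares are 48.9% and 49.4%, and in Cyp2d9 and Cyp2d12 they are 10.7% and 11.1%. Cyp2c44 shares 0 such stretches with any other gene. How the authors assigned reads that match several genes is not given in the sources used here, so values of the Cyp2a and Cyp4a12 pairs are uncertain between the partners.

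A further 4 windows belong to genes with large differences between libraries. Cyp2j13, Cyp4b1 and Cyp2d9 were far lower in replicate 1 of every group, and Cyp2d26 was higher there. They lie at chr4:96077491-96077790 (Cyp2j13, minus strand), chr4:115647672-115647971 (Cyp4b1, minus strand), chr15:82452127-82452426 (Cyp2d9, plus strand) and chr15:82794196-82794495 (Cyp2d26, minus strand). Each is written in the direction of the gene, and capitals mark matches, on either strand, to 5 motifs of factors known to act on P450 genes or on the start of transcription.
Cyp2j13: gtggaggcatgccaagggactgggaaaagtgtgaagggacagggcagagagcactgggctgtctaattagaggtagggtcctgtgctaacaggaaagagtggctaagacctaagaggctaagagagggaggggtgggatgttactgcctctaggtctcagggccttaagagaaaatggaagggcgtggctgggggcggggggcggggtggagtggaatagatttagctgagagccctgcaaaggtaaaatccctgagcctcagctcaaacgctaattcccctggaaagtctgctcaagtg
Cyp4b1: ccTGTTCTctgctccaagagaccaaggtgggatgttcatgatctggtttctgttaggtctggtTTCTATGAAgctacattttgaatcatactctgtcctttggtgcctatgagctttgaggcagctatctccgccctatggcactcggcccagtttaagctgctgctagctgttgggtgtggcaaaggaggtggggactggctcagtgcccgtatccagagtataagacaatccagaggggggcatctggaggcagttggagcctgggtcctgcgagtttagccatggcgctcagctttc
Cyp2d9: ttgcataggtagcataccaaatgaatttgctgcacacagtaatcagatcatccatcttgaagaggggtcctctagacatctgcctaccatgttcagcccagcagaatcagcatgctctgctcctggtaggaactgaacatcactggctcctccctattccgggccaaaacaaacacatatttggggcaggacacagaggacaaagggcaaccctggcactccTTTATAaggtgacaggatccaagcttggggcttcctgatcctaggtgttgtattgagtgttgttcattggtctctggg
Cyp2d26: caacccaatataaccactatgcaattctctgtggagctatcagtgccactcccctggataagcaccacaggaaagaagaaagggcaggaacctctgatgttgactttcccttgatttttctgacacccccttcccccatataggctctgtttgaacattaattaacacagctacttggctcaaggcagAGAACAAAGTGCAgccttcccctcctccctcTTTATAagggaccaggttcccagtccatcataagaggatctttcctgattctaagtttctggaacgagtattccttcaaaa

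RefSeq windows were found for 25 of the 35 genes, and none was used for Cyp2c44, Cyp2d12, Cyp2d22, Cyp39a1, Cyp4a12a, Cyp4a12b, Cyp4a31, Cyp4b1-ps2, Cyp4f17 and Cyp7b1. Counted on either strand, the TATA box, TATAAA, occurred in 8 of the 25 genes and in 13.6% of all 32851 windows. The androgen or glucocorticoid receptor hexamer, AGAACA, occurred in 7 of 25 and in 19.0% of all windows, and the STAT5 motif, TTCNNNGAA, in 3 of 25 and in 8.3%. The HNF4 motif, CAAAGTNCA, occurred in Cyp2d26 alone among the 25 genes and in 1.4% of all windows, and there it overlaps the hexamer. The motif of the clock-controlled bZIP factors, TTANGTAA, occurred in 0 of 25 and in 2.3%. The Cyp2j13 window holds none of the 5, and Cyp4b1 holds the hexamer and the STAT5 motif. Cyp2d9 holds a match to the TATA box letters 28 bases before the start. That match, like the one in Cyp2d26, reads TATAAA only on the strand opposite to the gene. These are letter matches, and no binding was measured.

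Levels can be compared between genes only per length, so the log2 value was taken minus log2 of the transcript length in kb and averaged over the 6 control libraries. Cyp4b1, which hydroxylates medium-chain fatty acids, was highest on this scale at 14.36 ± 2.03 (SD, n = 6), followed by Cyp2e1 at 13.03 ± 1.98 and the epoxygenase Cyp2j5 at 12.85 ± 0.28. Cyp4b1 was above Cyp2e1 in all 6 control libraries, by 1.04 to 1.48. Cyp2j5 was below both in 4 of the 6 and above both in the 2 libraries of replicate 1, so its place in the order differs between libraries. The SD of Cyp4b1 and Cyp2e1 comes from replicate 1: Cyp4b1 ranged from 11.64 to 15.79 and Cyp2e1 from 10.37 to 14.48, whereas Cyp2j5 stayed between 12.36 and 13.16. Next came Cyp4a31 at 11.52 ± 0.97 and Cyp2d12 at 10.99 ± 0.38 per length, with Cyp4a31 above Cyp2d12 in 4 of 6 control libraries and the difference between -0.25 and 1.52. Of these 5 leading genes, 4 also lead without division by length.

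In the other roles the highest were Cyp27a1, the mitochondrial sterol hydroxylase of bile acid synthesis, at 8.62 ± 0.15 per length, and Cyp20a1, which has no assigned role, at 6.55 ± 0.33. Cyp27a1 was among the steadiest genes, with log2 values from 9.31 to 9.86 over all 12 libraries. The lowest levels per length were those of Cyp4f37 at 4.42 ± 0.58 and Cyp26b1, which clears retinoic acid, at 4.70 ± 1.03.

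**Figure D1:**
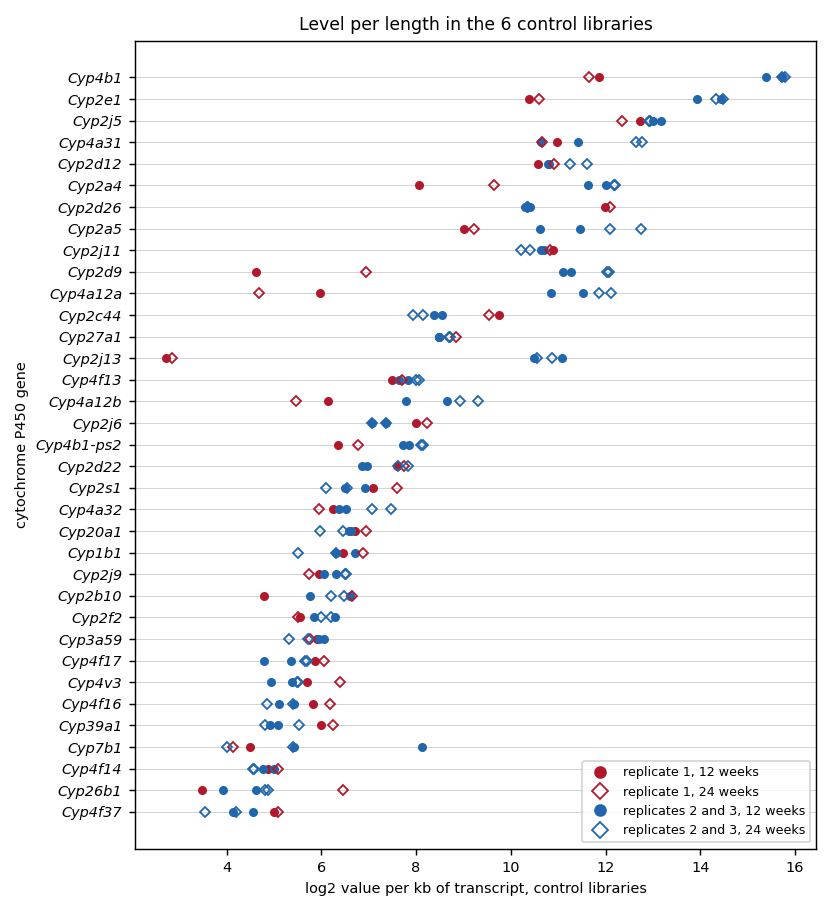
Level per transcript length of the 35 P450 genes in the 6 control libraries. The x axis gives the deposited log2 value minus log2 of the transcript length in kb; each point is 1 library, red for replicate 1 and blue for replicates 2 and 3, filled at 12 weeks and open at 24 weeks. Cyp4b1 reaches 15.79 and the red points of Cyp2j13, Cyp4a12a, Cyp2d9, Cyp4b1 and Cyp2e1 lie far to the left of the blue ones.

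Before any comparison of NASH with control, the libraries numbered 1 stood apart from those numbered 2 and 3 in all 4 groups. Xist, the RNA of the inactive X chromosome, had log2 values of 10.60 to 11.54 in these 4 libraries, whereas in the remaining 8 it lay between 2.97 and 4.86. The Y-linked gene Ddx3y went the opposite way, with 2.48 to 4.25 in the same 4 libraries against 8.95 to 9.62. By these genes the 4 libraries hold female RNA and the remaining 8 male RNA, though the labels give no sex per library. The spread in a fit without the replicate number therefore includes this difference. Markers of podocytes and vessels moved with the number too: 7 of 8 were wholly higher in replicate 1, with a median difference of 1.19 on the log2 scale. Of 10 markers of the loop of Henle and distal nephron, 4 were wholly higher and 0 wholly lower. Among 12 proximal tubule markers, 3 were wholly lower and 0 wholly higher, but the median difference over the 12 was 0.16 upwards. In bulk tissue, fewer cells of a type and less RNA per cell cannot be told apart. Estimated depth ranged from 7200000 to 14100000 reads. In replicates 1, 2 and 3 at 12 weeks it was 12673391, 13738034 and 13055731 in control and 12447996, 7173808 and 8230465 in NASH. Every NASH library was thus shallower than every control at 12 weeks, mostly in replicates 2 and 3. At 24 weeks it was 10065036, 14051364 and 11226286 in control and 12297077, 11290787 and 8279811 in NASH, which overlap. The part of depth in the NASH changes was not tested.

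The P450 genes were part of this split, which is given here as a description without a test. In 9 of the 35 (25.7%) all 4 libraries numbered 1 lay below the other 8, against 4.21% of all genes. In 8 of the 35 (22.9%) they lay above, against 15.0% of all genes. Among the 9 are Cyp4a12a with Cyp4a12b, Cyp2a4 with Cyp2a5, and Cyp4b1 with Cyp4b1-ps2, which shares 34.2% of its 50-base stretches with Cyp4b1. Such pairs may share reads, so the 9 are not independent observations. The median size of the difference was 0.82 on the log2 scale over the P450 genes and 0.30 over all genes, and it was over 2-fold in 14 of 35 against 934 of 11614 (8.0%). Cyp2j13 ranked 3, Cyp4a12a 5, Cyp2d9 15, Cyp4b1 22 and Cyp2e1 24 in size of this difference among all genes. What a replicate number stands for was not given, and the part of sex, of cell make-up or of a batch in this split was not tested.

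Among the omega-hydroxylases, Cyp4a12a, the main source of 20-HETE in mouse kidney, had log2 values of 7.25, 5.97, 5.37 and 5.03 in replicate 1 of the control 12-week, control 24-week, NASH 12-week and NASH 24-week groups. In the other 8 libraries it lay between 11.44 and 13.39, so no library of one kind reached the other. These values correspond to an estimated 29 to 142 reads against 1740 to 9035. Cyp4b1 stood at 12.76, 12.55, 11.41 and 12.12 in the same 4 libraries and between 15.94 and 16.70 in the rest, a mean difference of 18.2-fold. Cyp4a12b, the near-copy of Cyp4a12a, stood at 6.19 to 7.41 against 7.99 to 10.56.

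The largest difference was that of an epoxygenase. Cyp2j13 lay between 3.86 and 4.14 in replicate 1, an estimated 13 to 15 reads, against 11.22 to 12.37 elsewhere, an estimated 1497 to 4995 reads. Its neighbour Cyp2j5 differed by 0.45 on the log2 scale and overlapped between the 2 kinds of library. The other way went 4 of the 7 epoxygenases, Cyp2j11, Cyp2j6, Cyp2s1 and Cyp2c44, which were wholly higher in replicate 1. Cyp2c44, a renal epoxygenase, lay between 10.20 and 10.73 there and between 8.06 and 9.53 elsewhere.

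Among the drug and toxin enzymes, Cyp2d9, which hydroxylates testosterone, lay between 5.35 and 8.70 in replicate 1 and between 11.32 and 12.86 elsewhere. Cyp2e1, the enzyme that activates CCl4, stood at 10.75 to 11.40 against 14.72 to 15.63. Cyp2a4 was at 8.84 to 11.94 against 12.40 to 13.46, and Cyp2a5 at 9.18 to 10.00 against 10.62 to 13.52. Cyp2d26 was the wholly higher member of this role, at 12.70 to 12.85 against 10.79 to 12.11. Cyp2d9 and Cyp2d26 lie in the same cluster and differed in opposite directions. Cyp7b1, an oxysterol hydroxylase, was 4.48-fold lower on average in replicate 1 but overlapped, since its values in the other 8 libraries ranged from 5.13 to 12.16.

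**Figure D2:**
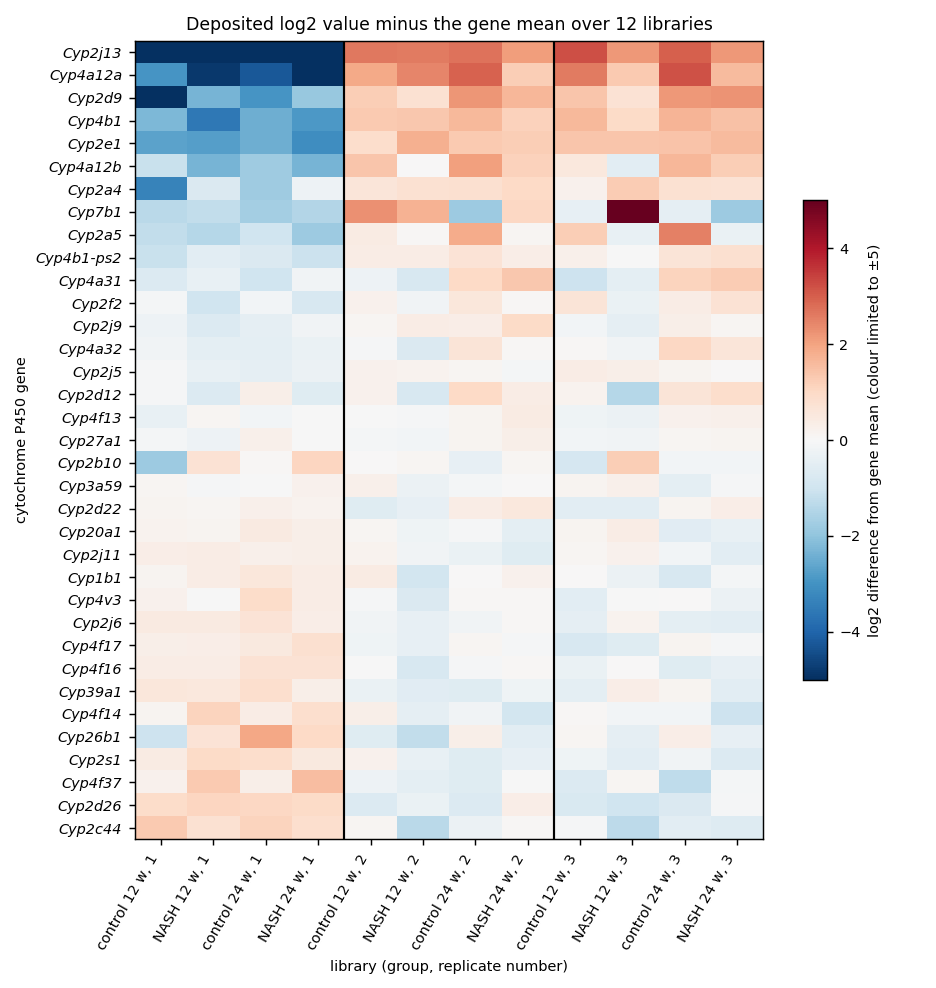
Deposited log2 value of each P450 gene (y axis) in each library (x axis, ordered by replicate number) minus the mean of that gene over 12 libraries; red is above and blue below the mean, with the colour limited to 5 on either side. The 4 columns of replicate 1 are blue for Cyp2j13, Cyp4a12a, Cyp2d9, Cyp4b1 and Cyp2e1 and red for Cyp2d26 and Cyp2c44, in control and NASH alike.

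NASH was compared with control by limma, a linear model fitted to every gene, with Benjamini-Hochberg adjustment over all 11614 genes; a gene is said to change where its adjusted p is under 0.05. The first fit used the 4 group means alone. There, 0 of the 35 P450 genes changed at 12 weeks (0.0517% of all genes did), and 0 changed at 24 weeks, in the average over both times, in the difference between the times, or with time in control or in NASH mice (0.0% of all genes in each). At an unadjusted p under 0.05 the counts were 2 at 12 weeks, 0 at 24 weeks, 2 for the average, 0 for the difference, 3 for time in controls and 4 for time in NASH. The spread that replicate 1 adds is large in this fit: the SE of the 12-week change was 3.11 for Cyp2j13, 2.63 for Cyp4a12a and 1.69 for Cyp4b1.

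A second fit added the replicate number as a block, so that NASH libraries are compared with the control library of the same number. All 18 same-numbered pairs of libraries of different groups deviated together, but so did replicates 2 with 3, so the numbers separate replicate 1 and do not settle a finer pairing. At 12 weeks 3 of the 35 genes fell (8.6%) and 0 rose, against 9.85% of all genes that fell and 3.01% that rose. The share is near that of all genes. At 24 weeks 0 changed (0.00861% of all genes), with 5 at an unadjusted p under 0.05. For the average over both times 7 of the 35 fell and 1 rose, against 7.36% and 3.03% of all genes. The median change of the 35 genes was -0.05 at 12 weeks, -0.06 at 24 weeks and -0.06 for the average, beside -0.08, 0.01 and -0.04 over all genes.

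**Figure D3:**
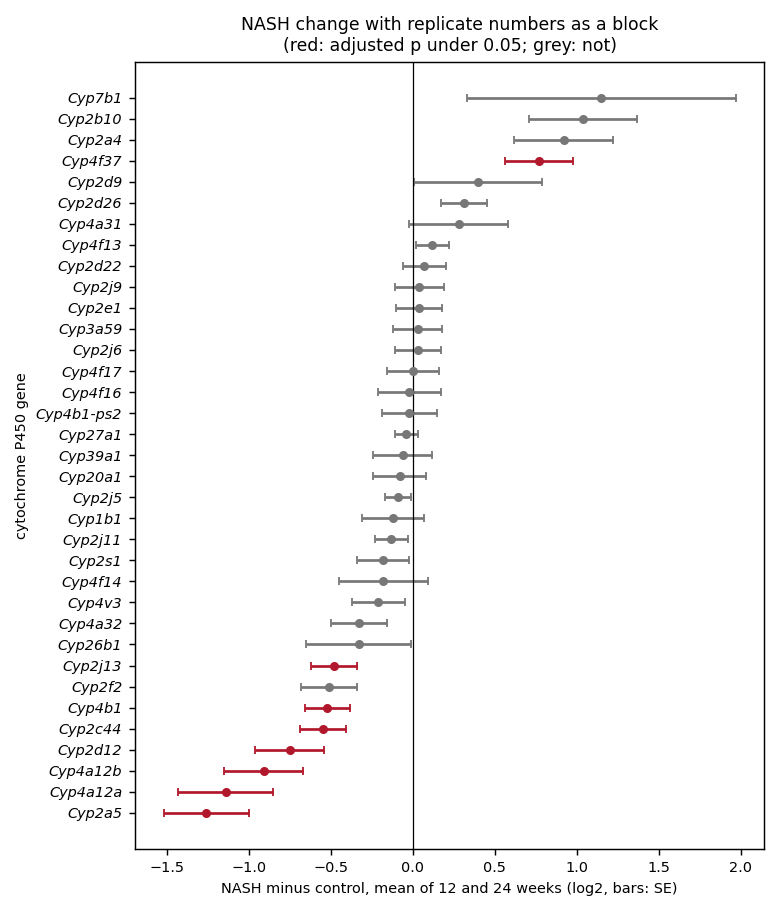
NASH minus control, averaged over 12 and 24 weeks, for the 35 P450 genes on the log2 scale (x axis), with the replicate number as a block; bars are 1 SE. Red points passed an adjusted p under 0.05 in limma: 7 genes lie left of 0, from Cyp2j13 at -0.48 to Cyp2a5 at -1.26, and Cyp4f37 lies right of it at 0.77.

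Both counts depend on the scaling of the libraries and on single libraries. With the block and quantile normalization, 3 genes fell and 1 rose at 12 weeks, and with median-of-ratios scaling 1 fell and 2 rose. For the average, the splits were 5 down and 2 up, and 3 down and 2 up, beside 627 down and 534 up and 615 down and 628 up over all genes, which were 855 and 352 before rescaling. Over all genes the 12-week split moved from 1144 down and 350 up to 698 and 532 with quantile normalization and to 693 and 686 with median-of-ratios scaling. Without control replicate 3 at 12 weeks, the blocked counts were 0 at 12 weeks and 0 for the average, beside 253 and 265 of all 11614 genes. Without control replicate 3 at 24 weeks, the blocked count for the average was also 0, beside 210 of all genes.

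The omega-hydroxylases of the Cyp4a12 pair were lower in NASH. In replicates 1, 2 and 3 Cyp4a12b (chr4:115411624-115439034, plus strand, mm10) stood at log2 7.41, 9.91 and 9.05 in control and at 6.20, 8.53 and 7.99 in NASH at 12 weeks. At 24 weeks it stood at 6.73, 10.56 and 10.18 in control and at 6.19, 9.68 and 9.76 in NASH. The groups overlap because of replicate 1, but in all 6 same-numbered pairs the NASH library was the lower one. With the block, Cyp4a12b fell by 1.22 at 12 weeks (SE 0.34, limma adjusted p = 0.0437) and by 0.91 on average (SE 0.24, adjusted p = 0.0404). Without the block the adjusted p at 12 weeks was 0.664. The 12-week call was lost under quantile normalization, under median-of-ratios scaling, with the trend on length and GC content removed, and in every fit that left out a library except those without replicate 1 of control at 24 weeks and replicates 1 and 3 of NASH at 24 weeks. The average call was lost under the same scalings and in every such fit except those without replicate 1 of control at 24 weeks, replicate 1 of NASH at 12 weeks and replicate 3 of NASH at 24 weeks.

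Cyp4a12a (chr4:115299046-115332815, plus strand) stood at 7.25, 12.12 and 12.80 in control and 5.37, 12.67 and 11.53 under NASH at 12 weeks, and at 5.97, 13.14 and 13.39 against 5.03, 11.44 and 11.80 at 24 weeks. It was lower in NASH in 5 of the 6 pairs, all but replicate 2 at 12 weeks. With the block it fell by 1.14 on average (SE 0.29, limma adjusted p = 0.0339; 0.826 without the block). That call held in the leave-out fits without replicate 2 of control at 12 weeks, replicate 1 of control at 24 weeks or replicate 2 of NASH at 12 weeks, and was lost in the other 9 and with the length and GC trend removed. Because 48.9% of its 50-base stretches occur in Cyp4a12b, the 2 genes are not independent observations.

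Cyp4b1 (chr4:115624728-115647705, minus strand), the gene with the highest level per length, stood at 12.76, 16.30 and 16.63 in control and 11.41, 16.33 and 15.94 in NASH at 12 weeks. At 24 weeks it stood at 12.55, 16.62 and 16.70 against 12.12, 16.16 and 16.45. With the block it fell by 0.52 on average (SE 0.14, limma adjusted p = 0.0428), with the NASH library lower in 5 of 6 pairs. Of the 12 fits that left out a library, the call held without replicate 2 of either 12-week group and was lost in the other 10, as it was with median-of-ratios scaling and with the length and GC trend removed. The 12-week change of Cyp4b1 did not pass in the blocked fit of the deposited values. It passed with the block under quantile normalization, at -0.73 (limma adjusted p = 0.0407). Without replicate 2 of NASH at 12 weeks it passed at -0.95 (adjusted p = 0.0258). Cyp4a31 and Cyp4a32, close neighbours of Cyp4b1, changed by 0.28 (SE 0.30) and -0.33 (SE 0.17) on average and did not pass.

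Cyp4f37 (chr17:32621319-32636184, plus strand), a CYP4F gene, was the 1 gene that rose in the blocked fit of the deposited values. It stood at 6.41, 5.95 and 5.54 in control and 7.53, 5.72 and 6.29 under NASH at 12 weeks, and at 6.49, 5.61 and 4.95 against 7.74, 6.19 and 6.11 at 24 weeks. The NASH library was higher in 5 of 6 pairs. Its reads were few, an estimated 79, 61 and 44 in control and 166, 27 and 46 in NASH at 12 weeks. At 24 weeks Cyp4f37 held an estimated 66, 49 and 25 reads in control and 190, 59 and 41 in NASH. Of its 50-base stretches, 20.9% also occur in Cyp4f16, so reads of these 2 genes may not be told apart fully. The blocked average was 0.77 (SE 0.21, limma adjusted p = 0.0428). The call held without replicate 2 of control at 12 weeks, of control at 24 weeks or of NASH at 12 weeks, and was lost without any of the other 9 libraries and with the length and GC trend removed. The other 4 measured Cyp4f genes had averages from -0.18 to 0.12 and did not pass.

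Among the epoxygenases, Cyp2c44 (chr19:44005022-44029247, minus strand) stood at 10.73, 9.53 and 9.36 in control and at 10.20, 8.06 and 8.10 in NASH at 12 weeks. At 24 weeks it stood at 10.52, 9.12 and 8.91 against 10.27, 9.47 and 8.79. All 3 pairs were lower at 12 weeks, with differences of -0.53 to -1.47, and at 24 weeks 2 of 3 were lower, with -0.12 and -0.25. With the block it fell by 1.08 at 12 weeks (SE 0.20, limma adjusted p = 0.0113; 0.449 without the block) and by 0.01 at 24 weeks (SE 0.20, adjusted p = 0.991). The 12-week call held under each scaling tried with the block and was lost, at an adjusted p of 0.0546, without control replicate 3 at 12 weeks. The difference between the times did not pass in either fit, nor in replicates 2 and 3 alone, where it was 1.47 with an adjusted p of 0.0591. The average of -0.55 (SE 0.14, adjusted p = 0.0349) held without replicate 1 of control or NASH at 12 weeks or replicate 2 of NASH at 24 weeks, and was lost without any of the other 9 libraries and with the length and GC trend removed.

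Cyp2j13 (chr4:96044457-96077547, minus strand) stood at 4.01, 11.78 and 12.37 in control and 3.86, 11.73 and 11.31 under NASH at 12 weeks, and at 4.14, 11.85 and 12.15 against 3.98, 11.22 and 11.33 at 24 weeks. NASH was lower in 6 of 6 pairs, with differences of -0.05 to -1.05. In replicate 1 the pairs rest on an estimated 15 reads in control and 13 in NASH at 12 weeks. At 24 weeks they rest on 13 in control and 14 in NASH, so the direction of the replicate 1 pairs is uncertain. With the block Cyp2j13 fell by 0.48 on average (SE 0.14, limma adjusted p = 0.0493). This call was lost under every scaling tried with the block, and held only without replicate 1 of control at 12 weeks, replicate 2 of NASH at 12 weeks or replicate 1 of NASH at 24 weeks. Cyp2j5, with 14.60, 14.88 and 15.03 in control and 14.32, 14.86 and 14.95 in NASH at 12 weeks, differed by -0.09 on average (SE 0.08, adjusted p = 0.458).

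Among the drug and toxin enzymes, Cyp2a5 (chr7:26835339-26843264, plus strand) had the largest fall of the average. It stood at 9.78, 11.40 and 12.24 in control and 9.59, 11.07 and 10.62 under NASH at 12 weeks, and at 10.00, 12.87 and 13.52 against 9.18, 11.11 and 10.69 at 24 weeks. All 6 pairs were lower in NASH, with differences from -0.19 in replicate 1 at 12 weeks to -2.83 in replicate 3 at 24 weeks. With the block it fell by 1.26 on average (SE 0.26, limma adjusted p = 0.0196), and this held under each scaling tried with the block. It was lost without replicate 3 of control at 12 weeks, of control at 24 weeks or of NASH at 24 weeks, with adjusted p-values up to 0.0559. At 24 weeks the blocked change was -1.80 with an adjusted p of 0.314, where 1 of all 11614 genes passed.

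Cyp2a4, its near-copy, did not pass in either fit over all 12 libraries as deposited. It stood at 8.84, 12.78 and 12.40 in control and 11.48, 12.95 and 13.46 under NASH at 12 weeks, and at 10.43, 12.98 and 12.95 against 11.94, 13.18 and 12.90 at 24 weeks. NASH was higher in 5 of 6 pairs, by 2.64 and 1.52 in replicate 1 and by at most 1.06 in replicates 2 and 3. The blocked changes were 1.29 at 12 weeks (SE 0.43, limma adjusted p = 0.0711) and 0.92 on average (SE 0.30, adjusted p = 0.0755). It passed at 12 weeks under median-of-ratios scaling with the block, at 1.38 and an adjusted p of 0.0498. With the block it also passed at 12 weeks without replicate 1 of NASH at 24 weeks (1.29, adjusted p = 0.0385). On average it passed without replicate 2 of control at 12 weeks (1.14, adjusted p = 0.0491). In replicates 2 and 3 alone its change was 0.61 at 12 weeks and 0.34 on average (limma adjusted p = 0.0854 and 0.195). Over the fits that left out a library, with or without the block, the 12-week change ranged from 0.04, without replicate 1 of control at 12 weeks, to 2.01, without replicate 2 of that group. Both ends came from fits without the block, where leaving out a library unbalances replicate 1.

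Cyp2b10 (chr7:25897658-25926624, plus strand), the classic target of the xenobiotic receptor CAR (Nr1i3), stood at 5.69, 7.52 and 6.67 in control and 8.22, 7.6 and 8.74 in NASH at 12 weeks, so that all 3 NASH libraries lay above the controls. At 24 weeks it stood at 7.55, 7.11 and 7.38 against 8.58, 7.61 and 7.38, which overlap. NASH was higher in 6 of 6 pairs, though by 0.01 in replicate 3 at 24 weeks. The 12-week change was 1.56 (SE 0.46), with a limma adjusted p of 0.0504 with the block and 0.26 without. It passed at 12 weeks with the block under quantile normalization (1.63, adjusted p = 0.0344) and under median-of-ratios scaling (1.65, adjusted p = 0.0351). For the average it passed under the same scalings, at 1.07 and 1.08 (limma adjusted p = 0.0435 and 0.047). With the block, the 12-week change also passed without replicate 2 of control at 12 weeks or replicate 1 of NASH at 24 weeks. The average also passed without that control library. Its reads were few, an estimated 48, 181 and 96 in control and 267, 99 and 252 in NASH at 12 weeks. Of the 35 genes, Cyp2b10 was the only one with its 12-week groups apart upwards (8.14% of all genes were), and 3 were apart downwards (14.4% of all genes). At 24 weeks 0 of the 35 were apart in either direction, beside 4.56% of all genes upwards and 2.65% downwards.

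Cyp2d12 (chr15:82555098-82559413, plus strand) was 1 of the 3 genes apart downwards, with Cyp2f2 and Cyp27a1. It stood at 11.27, 11.51 and 11.49 in control and 10.62, 10.53 and 9.89 under NASH at 12 weeks, and at 11.61, 12.31 and 11.95 against 10.72, 11.68 and 12.19 at 24 weeks. With the block it fell by 1.07 at 12 weeks (SE 0.29, limma adjusted p = 0.0383; 0.268 without the block) and by 0.75 on average (SE 0.21, adjusted p = 0.044). The 12-week call was lost under median-of-ratios scaling and in the leave-out fits other than those without replicate 1 of control at 24 weeks, replicate 1 of NASH at 12 weeks or replicates 1 and 3 of NASH at 24 weeks. The average call held only without replicate 1 of NASH at 12 weeks or replicate 3 of NASH at 24 weeks, and was lost under median-of-ratios scaling and with the length and GC trend removed.

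Cyp2f2, known for activating naphthalene in the lung, had a 12-week change of -0.75 (SE 0.24 with the block, limma adjusted p = 0.067). Cyp27a1 was apart by a small margin, with 9.44, 9.44 and 9.43 in control and 9.31, 9.41 and 9.39 in NASH. Its 12-week change was -0.07 (SE 0.10, adjusted p = 0.695). Cyp2e1, the enzyme that acts on the CCl4 given to the NASH mice, stood at 11.17, 14.72 and 15.24 in control and 11.07, 15.63 and 15.21 in NASH at 12 weeks. At 24 weeks it stood at 11.40, 15.13 and 15.27 against 10.75, 15.07 and 15.42. The blocked change of Cyp2e1 was 0.26 at 12 weeks (SE 0.20, adjusted p = 0.406) and -0.19 at 24 weeks (SE 0.20, adjusted p = 0.788), and did not pass.

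Cyp2d9 differed in direction between replicates. It stood at 5.35, 11.83 and 11.99 in control and 8.27, 11.37 and 11.32 under NASH at 12 weeks, and at 7.66, 12.80 and 12.75 against 8.70, 12.24 and 12.86 at 24 weeks. The pair of replicate 1 was higher in NASH by 2.92 and 1.03, whereas 3 of the 4 other pairs were lower. Its average change was 0.40 (SE 0.39 with the block, limma adjusted p = 0.542). With 1 library of replicate 1 in each group, no test of the difference between replicate 1 and the others was made.

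Of the 5 sterol, bile acid and retinoid enzymes, Cyp20a1 counted with them, 0 passed a NASH comparison over all 12 libraries in limma, with or without the block, and 0 had an unadjusted p under 0.05 at 12 weeks, at 24 weeks or on average. Cyp7b1 had the widest spread, with 5.60, 9.24 and 6.54 in control and 5.71, 8.68 and 12.16 in NASH at 12 weeks, an estimated 2686 reads in that last library. Its 12-week change was 1.72 (SE 1.16 with the block, limma adjusted p = 0.346), and without replicate 3 of NASH at 12 weeks it was -0.06. Cyp39a1, another oxysterol hydroxylase, changed by -0.28 at 24 weeks (SE 0.25, adjusted p = 0.74). Cyp26b1 stood at 5.72, 6.15 and 6.86 in control and 7.47, 5.52 and 6.32 under NASH at 12 weeks, and at 8.70, 7.05 and 7.11 against 7.75, 6.23 and 6.34 at 24 weeks. Its 24-week change was -0.85 (SE 0.46, adjusted p = 0.577), with NASH lower in 3 of 3 pairs. On average it passed in 1 fit, with the block and without replicate 1 of control at 12 weeks, at -0.71 (SE 0.15, limma adjusted p = 0.0348), against -0.33 over all 12 libraries.

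**Figure D4:**
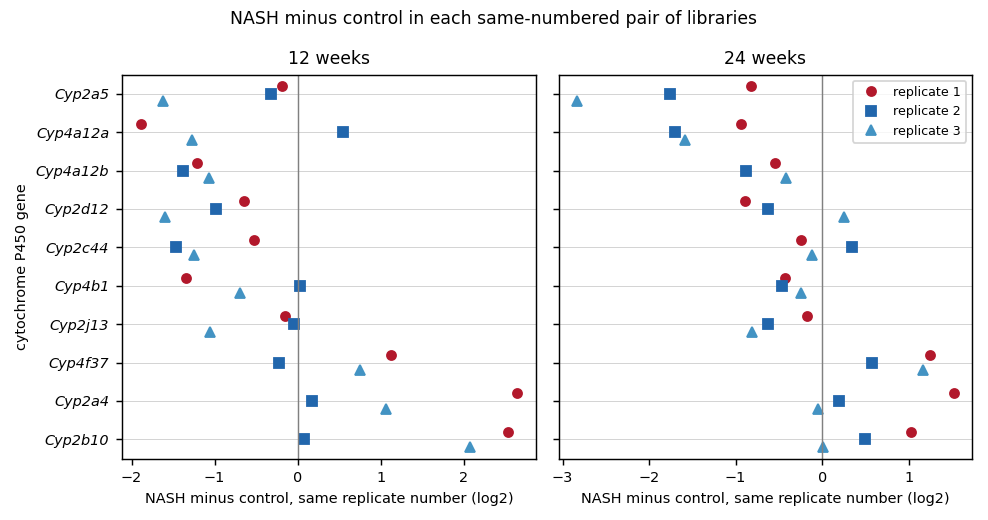
NASH minus control in each same-numbered pair of libraries at 12 weeks (left) and 24 weeks (right), on the log2 scale, for the 8 P450 genes that passed with the block on average, with Cyp2a4 and Cyp2b10. Points are single pairs, coloured and shaped by replicate number. Cyp2a5, Cyp4a12b and Cyp2j13 lie left of 0 in all 6 pairs, though the replicate 1 pairs of Cyp2j13 rest on an estimated 13 to 15 reads. Replicate 1 lies furthest right for Cyp2a4 and Cyp2b10 at both times.

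Replicates 2 and 3 alone, the 8 libraries with low Xist, were fitted on their own, with 2 libraries in each group. At 12 weeks the same 3 genes fell (3.31% of all genes changed): Cyp2c44 by 1.36, Cyp2d12 by 1.29 and Cyp4a12b by 1.22, with limma adjusted p-values of 0.00916, 0.0174 and 0.0373. At 24 weeks Cyp2a5 fell by 2.30 (SE 0.29, adjusted p = 0.0219), beside 0.103% of all genes. For the average Cyp2a5 fell by 1.63 (adjusted p = 0.00567) and Cyp4a12b by 0.94 (adjusted p = 0.0488), beside 1.06% of all genes. For the difference between the times 0 of the 35 passed (0.629% of all genes), with 6 at an unadjusted p under 0.05. In replicate 1 alone there is 1 library in each group, so only its pair values above can be given.

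Time itself was compared between the 24-week and the 12-week groups. With the block, 0 of the 35 genes changed in controls (0.172% of all genes) and 0 in NASH (0.0258%), and 0 differed in the NASH effect between times (0.00861%). The limma counts at an unadjusted p under 0.05 were 6, 11 and 1. In replicates 2 and 3 alone, 4 genes rose with time in controls (11.4% of the 35, beside 6.5% of all genes in either direction). These were Cyp4a31 by 1.69, Cyp2a5 by 1.38, Cyp2d9 by 0.87 and Cyp2d22 by 0.82, with limma adjusted p-values from 0.00223 to 0.0218. In NASH 7 rose and 1 fell (22.9%, beside 4.66%): Cyp4a31 rose by 1.95, Cyp2d12 by 1.73, Cyp4a12b by 1.46, Cyp2d9 by 1.2, Cyp2c44 by 1.05, Cyp2d22 by 0.88 and Cyp2d26 by 0.81, and Cyp2j11 fell by 0.59.

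Cyp4a31 shows this pattern in its values. It stood at 12.26, 12.70 and 11.92 in control and 12.59, 12.15 and 12.46 in NASH libraries at 12 weeks, and at 11.95, 13.94 and 14.06 and 12.78, 14.30 and 14.21 at 24 weeks. Replicates 2 and 3 were higher at 24 weeks in both groups, and replicate 1 was not higher in controls. With all 3 replicates and the block, its change with time was 1.03 in controls (adjusted p = 0.219) and 1.36 in NASH (adjusted p = 0.283).

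Of the proteins that P450 enzymes depend on, 9 of 11 listed redox partners were measured. With the block 1 rose and 1 fell at 12 weeks, beside 3.01% and 9.85% of all genes. Por, the reductase that feeds electrons to microsomal P450 enzymes, stood at 11.36, 11.98 and 12.19 in control and 12.46, 12.75 and 12.50 in NASH, and rose by 0.73 (SE 0.15, limma adjusted p = 0.0152; 0.287 without the block). The call was lost without replicate 1 of either 12-week group or replicate 2 of control at 12 weeks. At 24 weeks the change of Por was -0.24 (adjusted p = 0.616). Cyb5b, an outer mitochondrial cytochrome, fell by 0.51 at 12 weeks (SE 0.15, adjusted p = 0.0465). That call was lost under every other scaling and held only without replicate 1 or 2 of control at 24 weeks or replicate 3 of NASH at 12 weeks. Of 12 measured genes of haem synthesis and breakdown, 0 changed at 12 weeks, at 24 weeks or on average in limma with the block, and 2, 2 and 4 had an unadjusted p under 0.05.

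Of 3 measured epoxide hydrolases and related enzymes, Ephx1, which opens toxic epoxides, rose by 0.57 at 12 weeks (SE 0.17, limma adjusted p = 0.0464 with the block; 0.44 without). This was lost with the length and GC trend removed, and held only without replicate 1 of control at 24 weeks or replicate 2 of NASH at 12 weeks. Of 25 measured regulators of P450 genes, 4 rose and 1 fell at 12 weeks with the block, beside the same 3.01% and 9.85% of all genes. Dbp and Tef, clock-controlled bZIP activators, rose by 5.48 (SE 0.60, adjusted p = 0.00218) and 1.17 (SE 0.16, adjusted p = 0.00463), and Nfil3, which represses at the same sites, fell by 2.86 (SE 0.26, adjusted p = 0.00131). Dbp stood at 5.01, 5.19 and 3.54 in control and 9.87, 10.25 and 10.07 under NASH at 12 weeks, and at 5.73, 7.86 and 8.01 against 5.63, 8.65 and 6.73 at 24 weeks. Dbp also passed without the block at 12 weeks (adjusted p = 0.0468). These 3 calls held under each scaling and each library left out, with the block. Hlf, of the same bZIP family as Dbp, rose by 0.49 (SE 0.14, adjusted p = 0.0454). That call was lost in 9 of the 12 fits that left out a library and held without replicate 1 of control at 12 weeks or replicate 1 or 2 of NASH at 24 weeks. On average over both times Dbp, Tef and the oestrogen receptor Esr1 rose and Nfil3 fell, Esr1 by 0.66 (SE 0.18, adjusted p = 0.0422), which held only without replicate 2 of control or replicate 1 of NASH at 12 weeks. At 24 weeks Tef stood at 10.66, 11.36 and 11.47 in control and 10.3, 11.68 and 11.08 in NASH. Nfil3 stood there at 8.01, 6.85 and 6.93 in control and 8.24, 6.94 and 7.76 in NASH, not lower in any pair. With the block 0 of the 25 regulators passed at 24 weeks in limma. For the difference between the times 1 of the 25 passed, upwards, the only 1 of all 11614 genes. The hour of dissection was not given, and its part in these values was not tested.

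Markers of other cell types were set beside these changes. Liver RNA would carry many P450 transcripts, and 11 of 15 listed hepatocyte genes were measured. Of these, 2 rose and 1 fell at 12 weeks with the block: Ttr rose by 2.77 and Apoa2 by 1.12, and Apob fell by 0.67 (limma adjusted p = 0.0185, 0.0377 and 0.0151). The Ttr call was lost without replicate 1 of control or replicate 2 or 3 of NASH at 12 weeks. The Apoa2 call was lost in 7 of 12 fits that left out a library, all 6 of the 12-week libraries among them, and the Apob call in 4, those without replicate 1 or 2 of either 12-week group. Both were also lost with the length and GC trend removed. At 24 weeks 0 of the 11 passed in limma with the block (3 at an unadjusted p under 0.05). There 10 of the 11 were higher in NASH, with a median of 0.56. On average 2 rose and 1 fell, 10 were higher and the median was 0.48. In replicate 1 Apoa1, Serpina1a and Ahsg were higher in NASH at both times, Apoa1 at 6.79 against 3.69 and 7.04 against 3.90. In replicates 2 and 3 their directions were mixed. Alb, the leading hepatocyte transcript, stood at 9.36, 7.69 and 8.02 in control and 9.90, 7.55 and 9.0 in NASH at 12 weeks. The summed level of the 11 genes was log2 12.33 to 13.35 in control and 13.11 to 13.26 in NASH at 12 weeks, and 12.42 to 13.40 and 12.40 to 13.56 at 24 weeks. Of 10 adrenal cortex markers, 2 were measured. All 8 adipocyte markers were measured, and their summed level reached 14.41 in the controls at 24 weeks, where replicate 1 held Ucp1 at 11.88 and Adipoq at 10.50. With the block, 0 of the 8 passed at 24 weeks, though all 8 were lower in NASH with an unadjusted p under 0.05 and a median of -3.28 (range -4.66 to -1.63). Of 7 erythroid markers, 0 passed at either time in limma (5 and 6 at an unadjusted p under 0.05) and 5 rose on average with the block, among them Hba-a1 by 1.29 and Alas2 by 1.09, with a median of 0.96 over the 7. Hbb-bt and Hbb-b2, also among the 5, hold the same values, so they are 1 measurement. The summed erythroid level was log2 10.58 to 10.97 in control and 10.95 to 12.95 in NASH at 12 weeks, and 9.77 to 11.03 against 10.77 to 12.41 at 24 weeks. Of 10 markers of the loop of Henle and distal nephron, Aqp2 rose by 1.46 and Slc12a3 and Calb1 fell by 0.66 and 1.15 at 12 weeks with the block. On average 1 of the 10 rose and 2 fell, and 0 passed at 24 weeks. How far these calls depend on scaling or on single libraries is not given here. Of 8 macrophage markers and 8 markers of glomerulus and vessels, 0 passed at 12 weeks, at 24 weeks or on average in limma with the block, with 0, 1 and 3 and with 1, 3 and 0 at an unadjusted p under 0.05. Of 12 proximal tubule markers, 0 changed at 12 or 24 weeks in limma with the block (3 and 1 at an unadjusted p under 0.05), with a summed level of 19.38 to 19.98 over the 12 libraries. The part of these cell types in the P450 changes was not tested.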

How the data were processed

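RNA sequencing values of 12 mouse kidney cortex libraries were used as deposited. BWA, limma and build mm10 are named in the submitters' processing notes; their versions and roles are not given in the sources used here. The deposited values are on a log2 scale, normalized per the file headers. Between 85.5% and 91.1% of values below 60 steps were whole multiples of 1 step per library (within 0.01 steps, steps 1.00 to 1.96), so the log2 values that the authors deposited are read counts times 1 factor per library; genes with several transcripts, 8 of the 35 members, can hold a mean over transcripts. Scaled totals were 13600000 to 14100000, and estimated depth was 7200000 to 14100000 reads. Estimated reads are the linear values divided by the step.

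Groups were taken from the labels. A model of 4 group means was fitted to every gene in limma 3.58.1 (R 4.3.3) with a mean-variance trend, and 2-sided moderated tests were adjusted by Benjamini-Hochberg over 11614 genes. The alternative with the replicate number as a block is printed beside it. Deviations from the group means correlated at 0.19 to 0.74 in all 18 same-numbered pairs, and at 0.19 to 0.64 between replicates 2 and 3. The numbers were treated as pairing, though these correlations set only replicate 1 apart. Which libraries of replicates 2 and 3 belong together is not settled, so counts of pairs rest on the numbering. Other alternatives were quantile normalization, median-of-ratios scaling, filters on mean log2 values of 5 and 6.64, no trend, removal of a trend on length and GC content, replicates 2 and 3 alone, the compared groups alone and each library left out. Shared 50-base stretches and GC content came from GENCODE M21 transcripts (GC for 99.2% of genes), and promoters from RefSeq on GRCm38.p6. Python 3.11.15, numpy 2.4.6, pandas 2.3.3, matplotlib 3.10.9 and Biopython 1.88 were used. Starts in the files were raised by 1.

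The members and lists were chosen with earlier results of these data known. Named are members that passed in any fit printed, the member with the smallest p and the highest level in each role, the 8 with the largest difference of replicate 1, and the regulators, partners and hydrolases that passed. Other members named, the marker genes given with values and the 6 windows printed were chosen after their values were seen. A gene among the regulators that passed is not reported here.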

Additional observations from a re-analysis of the deposited data

How the results depend on the processing

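The number of P450 genes that passed without the block was 0 in all 6 comparisons, and stayed 0 in the unblocked fits with each library left out, with both other scalings, both filters on low values, no trend, and, where run, the compared groups alone. Adding the replicate number as a block gave 3 genes at 12 weeks and 8 for the average over both times, and 0 in the other comparisons. With the block, the counts at 12 weeks and for the average were 4 and 7 under quantile normalization, 3 and 5 under median-of-ratios scaling, and 2 and 1 with the length and GC trend removed. Over all 11614 genes the blocked counts were 1494 and 1207 as deposited. They were 1230 and 1161 under quantile normalization and 1379 and 1243 under median-of-ratios scaling. With the length and GC trend removed they fell to 494 and 340 of 11523 genes. Leaving out each library in turn, with or without the block, gave 0 to 5 genes at 12 weeks, 0 to 6 for the average, 0 to 1 for time in controls and 0 to 2 for time in NASH. Replicates 2 and 3 alone gave 3 at 12 weeks, 1 at 24 weeks, 2 for the average, 4 for time in controls and 8 for time in NASH. The cause of these differences between settings was not tested. Some changes turned direction when a library was left out without the block, which unbalances replicate 1. Over these fits the 24-week NASH change ranged from -0.29 to 0.99 for Cyp2a4, from -0.64 to 0.13 for Cyp2f2 and from -1.75 to 1.01 for Cyp4b1. The average ranged from -1.82 to 0.80 for Cyp2j13 and from -1.21 to 0.26 for Cyp4b1, and the 12-week change of Cyp4b1 from -1.90 to 0.91. The change of Cyp2d9 with time ranged from -0.84 to 3.06 in controls and from -0.08 to 2.23 in NASH. The number of P450 genes whose replicate 1 libraries lay apart was 17 and stayed within 1.5 times of that under both other scalings. Depth limits the low members most: Cyp2j13 held an estimated 13 to 15 reads in each replicate 1 library.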
